A study of Homo sapiens with 12 samples.

Results

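SNORD116 and SNORD115 are the C/D box small nucleolar RNA (snoRNA) genes repeated in tandem on the long arm of chromosome 15. The genes examined here are all entries of the RefSeq table of GRCh38.p14 named SNORD115 or SNORD116 with a copy number. They came to 78 of the 59098 genes on the autosomes and X, and to 78 of the 1196 snoRNA genes among them. There were 30 SNORD116 copies and 48 SNORD115 copies. Lamina-associated domains (LADs), stretches of DNA near the nuclear lamina, had been mapped by pA-DamID, in which an antibody to lamin B1 (LMNB1) brings the Dam methylase to the lamina, where it marks GATC sites. The cells were the human embryonic stem cell line H9 in a naive state (kept in RSeT medium, no other treatment) and in a primed state (kept in mTeSR medium, no other treatment). Each state had 3 LMNB1 libraries and 3 libraries of untethered Dam (Dam-only), and a single table of LAD intervals was deposited for each state. No replicate is kept apart, so differences between the lists were not tested and carry no error. H9 is 1 cell line, pA-DamID reads DNA contact and not RNA, and no marker of either state could be checked in these files.

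Both arrays lie inside introns of SNHG14, a long non-coding RNA gene that is transcribed from the paternal chromosome only. The snoRNAs are cut from the introns after splicing. Loss of the paternal SNORD116 array is found in Prader-Willi syndrome, and SNORD115 has a stretch complementary to the messenger RNA of the serotonin receptor 2C. In neurons the far end of SNHG14 runs antisense to UBE3A, the ubiquitin ligase gene of Angelman syndrome, and silences its paternal copy. C/D box snoRNAs usually guide 2'-O-methylation of other RNAs, but most SNORD116 targets are unsettled. The LAD lists do not separate the parental chromosomes, so a call or its absence holds for both together.

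The arrays were compact and were resolved by few LAD windows. The SNORD116 array spanned 56.9 kb (chr15:25051476-25108352), and SNORD116-1 and SNORD116-30 are its outermost copies. The SNORD115 array spanned 99.1 kb (chr15:25170723-25269858), from SNORD115-1 to SNORD115-48. They are 62.4 kb apart, and all 78 copies lie inside the 596 kb SNHG14 gene (chr15:24823608-25419462). All LAD edges in both lists were multiples of 10 kb, so the 78 copies fell into only 16 windows, 6 for SNORD116 and 10 for SNORD115. Copies in 1 window necessarily share a call, and the 78 copies are therefore far from 78 separate observations.

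Copies were not spread evenly over these windows. SNORD116 windows held 3 to 9 copies and SNORD115 windows 1 to 6. SNORD116-1 to SNORD116-9 are 97 or 98 bases long and start a median of 2.69 kb apart (2.64 to 2.79 kb). SNORD116-10 to SNORD116-24 are 94 to 104 bases long and start a median of 1.14 kb apart (0.82 to 2.25 kb). SNORD116-25 to SNORD116-30 are 85 to 98 bases long, with starts a median of 1.88 kb apart (1.75 to 3.07 kb). SNORD115-1 to SNORD115-44 start a median of 1.88 kb apart (0.892 to 3.08 kb). A step of 13.7 kb separates SNORD115-44 from SNORD115-45, and the last 4 copies are 33 to 76 bases long, against 82 bases for 37 of the 48 SNORD115 copies. One SNORD116 copy, SNORD116-22, crosses a window edge.

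**Figure D1:**
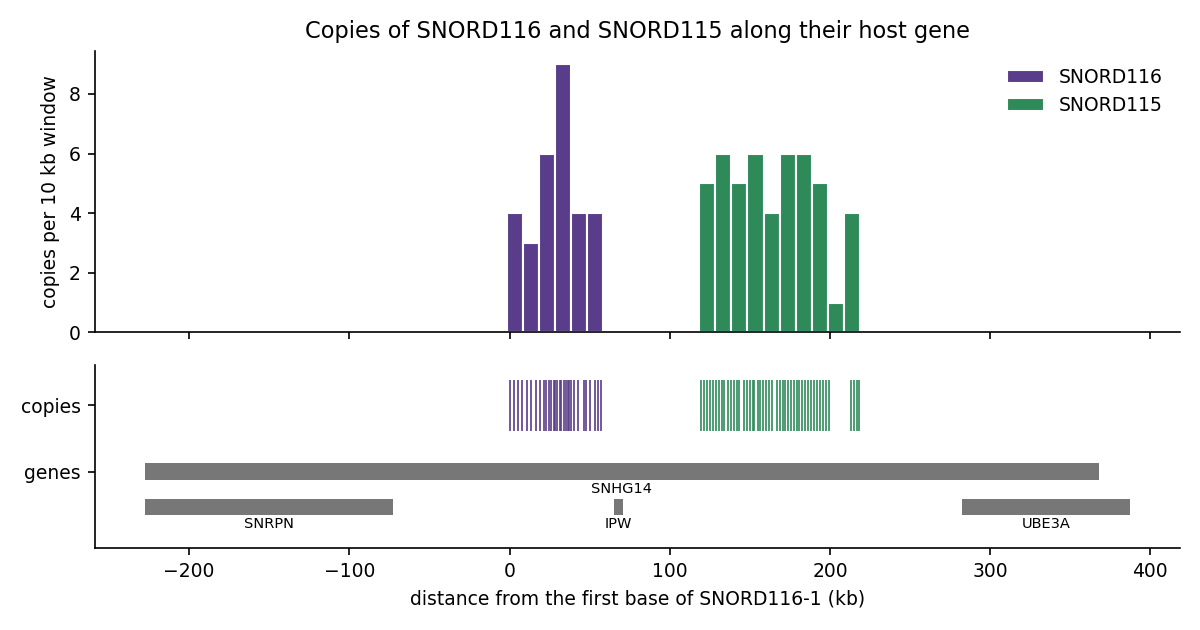
Upper panel, number of copies (y axis) in each 10 kb window, with distance from the first base of SNORD116-1 in kb on the x axis. Lower panel, each copy as a line above the bars of SNHG14, SNRPN, IPW and UBE3A. SNORD116 peaks at 9 copies in 1 window, and SNORD115 holds 4 to 6 copies in 9 of its 10 windows and 1 in the window where the 13.7 kb step begins.

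How far reads could be placed in the repeats was not tested, since sequences of the copies, their identity and their mappability were not analysed here. The libraries were sequenced with single-end reads of 100 bases, while the SNORD116 copies have a median length of 94 bases and the SNORD115 copies of 82 bases. Of the 78 copies, 29 of SNORD116 and all 48 of SNORD115 are no longer than a read, so a read can hold a whole copy and little else. The copies themselves fill 2844 of the 56877 bases of the SNORD116 array and 3812 of the 99136 bases of the SNORD115 array. Whether the sequence between copies is repeated as well was not analysed. These figures therefore do not give the repeated share of an array or the share where reads are hard to place. How reads that match several copies were handled is not stated by the labels or headers used, and neither list marks windows that could not be called. An uncalled window in the lists therefore cannot be told apart from one that no read could be placed in.

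Dam marks GATC, and 3 stretches of 300 bases taken from RefSeq (GRCh38.p14) serve as examples from in and between the arrays. They are shown because they are the start-site windows (250 bases before to 50 bases after a gene's start) inside SNORD116, between the arrays and inside SNORD115. All are on the plus strand, 5' to 3', with GATC in capitals. The first belongs to LOC128966705 (chr15:25064612-25064911) and ends 113 bases before SNORD116-6. The second belongs to IPW (chr15:25116295-25116594), a non-coding RNA gene of the imprinted locus, 7942 bases past SNORD116-30. The third belongs to PWAR4 (chr15:25211442-25211741) and ends 54 bases before SNORD115-23.
LOC128966705: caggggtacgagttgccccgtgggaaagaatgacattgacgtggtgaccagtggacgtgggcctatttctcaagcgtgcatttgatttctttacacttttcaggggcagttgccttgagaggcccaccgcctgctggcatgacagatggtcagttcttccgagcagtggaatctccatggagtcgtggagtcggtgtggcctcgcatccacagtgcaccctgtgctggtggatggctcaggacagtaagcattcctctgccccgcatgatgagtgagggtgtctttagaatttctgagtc
IPW: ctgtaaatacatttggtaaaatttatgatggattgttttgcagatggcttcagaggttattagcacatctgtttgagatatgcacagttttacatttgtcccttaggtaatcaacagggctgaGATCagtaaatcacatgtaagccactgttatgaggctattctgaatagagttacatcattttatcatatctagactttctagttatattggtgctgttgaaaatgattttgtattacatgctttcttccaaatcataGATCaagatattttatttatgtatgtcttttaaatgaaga
PWAR4: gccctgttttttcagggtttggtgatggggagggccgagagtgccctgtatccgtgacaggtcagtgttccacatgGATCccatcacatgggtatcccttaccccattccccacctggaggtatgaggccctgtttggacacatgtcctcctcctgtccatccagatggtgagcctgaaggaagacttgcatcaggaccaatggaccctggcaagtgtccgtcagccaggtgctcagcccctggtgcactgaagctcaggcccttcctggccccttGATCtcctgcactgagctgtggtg

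The LOC128966705 window held 0 GATC sites, the IPW window 2 and the PWAR4 window 2. GATC reads the same on both strands, and 41.7% of all 35116 start-site windows in the table held at least 1. Of the 20 windows that the table gives for genes of the surrounding imprinted locus, 11 held 1 or more. These 300-base windows say nothing of the sites in the rest of the arrays.

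No copy of either array lay in a LAD in naive or in primed cells. In naive LADs there were 0 of 30 SNORD116 and 0 of 48 SNORD115 copies, and in primed LADs likewise 0 of 30 and 0 of 48, with at least 50% of a gene required. At the same rule, naive LADs held 28.4% and primed LADs 25.2% of all 59098 genes. The shares held by LADs of the naive state only and of the primed state only were 5.27% and 1.99%. Of the 2086 genes of chromosome 15, naive LADs held 15.2% and primed LADs 10%. Among the 1078 snoRNA genes outside these arrays and outside the SNORD113 and SNORD114 arrays, the shares were 22.7% for naive and 21.5% for primed LADs. Of these, 207 of the 245 naive and 186 of the 232 primed calls had only a LOC symbol. Those with a SNORD, SNORA or SCARNA symbol were called at 8.55% in naive and 10.7% in primed (421 genes), and those with a LOC symbol at 31.6% and 28.4% (655 genes). Counted by window, 0 of 16 windows with a copy were called in naive cells and 0 of 16 in primed cells. The 62.4 kb between the arrays and the flanks of 2 Mb on either side also held no LAD window in either state.

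The nearest LADs were megabases away, and on both sides they were farther in primed than in naive cells, but each of these 4 LADs was a single 10 kb window. Single windows made up 40.1% of all naive and 45.8% of all primed LADs. On chromosome 15 they were 158 of 316 naive and 79 of 168 primed LADs. On the centromere side, the SNORD116 array was 2491 kb from the nearest naive LAD and 4081 kb from the nearest primed LAD. On the telomere side, the SNORD115 array was 3100 kb from the nearest naive LAD and 5000 kb from the nearest primed LAD. Over all 59098 genes the median distance was also larger in primed, at 0.492 Mb against 0.273 Mb in naive cells. Without LADs under 50 kb, the telomere-side distances were 9810 kb in naive and 9860 kb in primed cells, nearly the same, and no LAD remained on the centromere side in either list. The distances and most of their difference between the states thus rest on LADs under 50 kb. The order stayed on the telomere side, with primed slightly the farther, and could not be compared on the centromere side. Over single copies, the distance to the nearest LAD on any side ran from 2.49 Mb for SNORD116-1 to 2.71 Mb for SNORD115-48 in naive, and from 4.08 Mb for SNORD116-1 to 4.30 Mb for SNORD115-48 in primed cells. The centromere-side LAD was the nearer one for every copy in both lists. The differences between copies only restate their order along the chromosome.

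**Figure D2:**
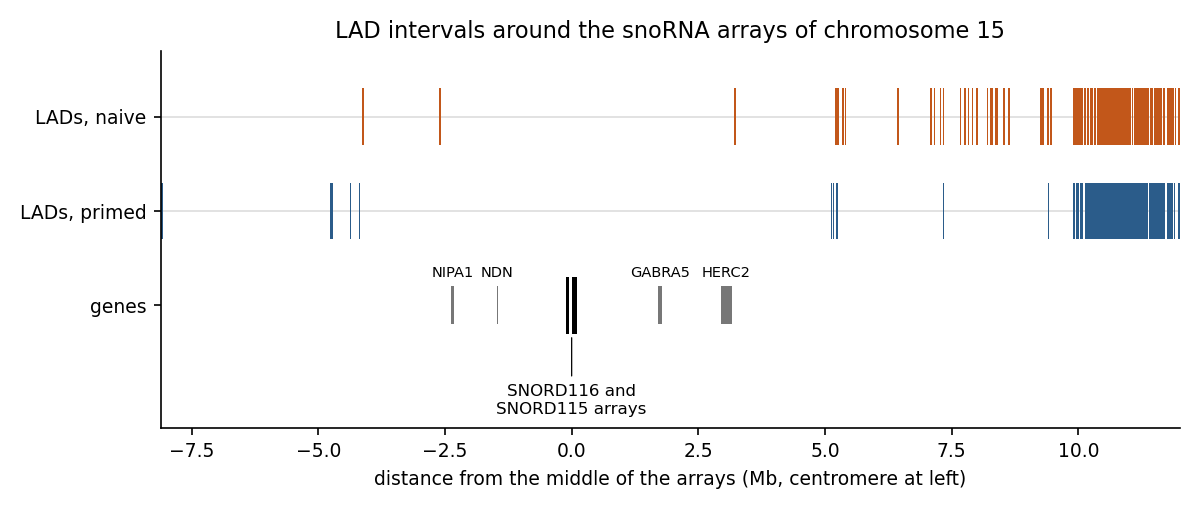
LAD intervals of the naive (upper row) and primed (middle row) lists by distance from the middle of both arrays in Mb (x axis), with the arrays (black) and 4 neighbouring genes (grey) in the bottom row; the narrowest intervals are drawn wider than scale so that they can be seen. Both rows are empty over the arrays, from 2491 kb before to 3100 kb after them in naive and from 4081 kb before to 5000 kb after them in primed cells.

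Together the arrays sat in 1 LAD-free stretch per state. It was 5.81 Mb long in naive cells (chr15:22560001-28370000) and 9.30 Mb long in primed cells (chr15:20970001-30270000). The naive stretch lies wholly within the primed one. It had rank 40 by length of the 9155 such stretches between LADs of the naive list and rank 3 of 315 on chromosome 15. The primed stretch had rank 21 of 5648 and rank 2 of 167. Assembly gaps between LADs count towards these lengths, so the ranks are not ranks of mappable sequence. Windows with a snoRNA copy made up 16 of the 581 windows of the naive stretch (2.75%) and 16 of the 930 windows of the primed stretch (1.72%). The LAD-free stretches thus extended far past the windows with a copy. Whether reads could be placed in the rest of the stretches was not tested.

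The difference in length between the states rested on the single windows that border the stretches. Inside the primed stretch the naive list had LADs of 10 kb each at chr15:21030001-21040000, chr15:22550001-22560000 and chr15:28370001-28380000, and no others. Of these, chr15:22550001-22560000 and chr15:28370001-28380000 border the naive stretch, and the other lies outside it. Inside the naive stretch the primed list had no LAD. The naive window on the centromere side of the arrays lies in HERC2P2, a pseudogene of the ubiquitin ligase HERC2. The naive window on the telomere side touches GOLGA8F, a gene of the golgin family. The primed list began again at chr15:30270001-30280000, in a window without an annotated gene, and on the other side ended at chr15:20960001-20970000, which touches LINC01193 and 2 olfactory receptor pseudogenes. Genes of related name lie under other short LADs nearby, HERC2P3 under a primed and GOLGA8R under a naive one. How uniquely reads could be placed in these bordering windows was not tested. Whether single windows such as these would return in separate replicates was not tested either.

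The bordering LADs were single windows, and long LADs were much farther off. On chromosome 15 before the arrays the naive list had 2 LADs and the primed list 6, and each of them was 10 kb long. On the telomere side the first LAD of at least 100 kb was 9.81 Mb from the arrays in naive cells (110 kb, chr15:35080001-35190000) and 10.02 Mb in primed cells (170 kb, chr15:35290001-35460000). Both overlap DPH6, a gene of diphthamide synthesis. Between the arrays and these LADs the naive list was the more populated one. It also had more LADs as a whole, 9178 against 5671 in primed, and 316 against 168 on chromosome 15. In the 1 Mb bins that start 5, 6, 7, 8 and 9 Mb past the bin with the arrays, naive LADs covered 5%, 1%, 7%, 9% and 4% of bases and primed LADs 3%, 0%, 1%, 0% and 1%. In the next bin, 10 Mb away, coverage was 77% in naive and 83% in primed cells.

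**Figure D3:**
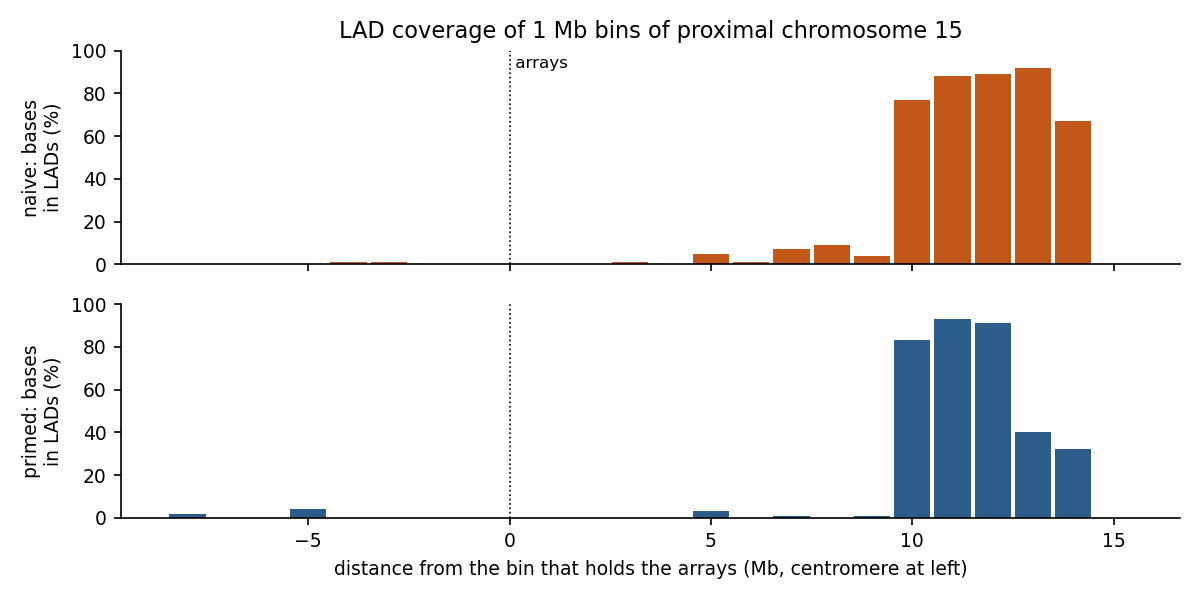
Share of bases in LADs (y axis, percent) for 1 Mb bins of proximal chromosome 15 in naive (upper) and primed (lower) cells, by distance from the bin with the arrays in Mb (x axis, dotted line at the arrays). Coverage stays at 0% to 9% from the bin 8 Mb before to the bin 9 Mb after the arrays and stands at 77% in naive and 83% in primed cells 10 Mb on the telomere side. How much of the sequence before the arrays can be mapped was not tested.

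The other genes of the imprinted locus were free of LADs as well. Of 23 locus genes, naive LADs held 0 and primed LADs 0, and none had a single base in a LAD of either list. All 23 lie inside the LAD-free stretches given above, so these zeros only restate those stretches. SNRPN, which encodes a spliceosomal SmN protein, and SNURF, which shares its transcript, were covered at 0% in both states, as were the snoRNA host SNHG14 and IPW. UBE3A was covered at 0% in both and lay 2.77 Mb from the nearest naive and 4.36 Mb from the nearest primed LAD. The paternally expressed genes towards the centromere were nearer to LADs but also at 0%. They are MKRN3, a ubiquitin ligase that restrains puberty, MAGEL2, a regulator of endosomal protein sorting, NDN, the necdin gene, and NPAP1. MKRN3 lay 1.01 Mb from a naive and 2.60 Mb from a primed LAD, MAGEL2 1.08 and 2.67 Mb, NDN 1.13 and 2.72 Mb, and NPAP1 2.12 and 3.71 Mb.

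The 9 neighbours reported beyond the 23 locus genes also lie inside the LAD-free stretches of both states. Their 0 of 9 in naive and 0 of 9 in primed LADs therefore follow from those stretches. On the centromere side, NIPA1 and NIPA2 (magnesium transport), CYFIP1 (an actin regulator) and TUBGCP5 (gamma-tubulin complex) lay 0.226 to 0.423 Mb from the nearest naive LAD. The same 4 lay 1.82 to 2.01 Mb from the nearest primed LAD. On the telomere side the lipid flippase gene ATP10A lay 2.50 Mb from a naive and 4.40 Mb from a primed LAD. HERC2 was the closest of the 9 to a naive LAD, at 0.0478 Mb, and lay 1.95 Mb from a primed one. The pigmentation gene OCA2 lay 0.271 Mb from a naive and 2.17 Mb from a primed LAD. GABRA5 and GABRG3, which encode receptor subunits, lay 1.42 and 0.828 Mb from a naive LAD and 3.32 and 2.73 Mb from a primed LAD. GABRG3 spans 571 kb, none of it in a LAD of either list.

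Few protein-coding genes lie around the arrays, and bins with few of them were usually covered by LADs in these lists. The 1 Mb bin with the arrays (chr15:25000001-26000000) holds the midpoints of 99 genes but of only 2 protein-coding ones. Over the autosomes and X, 648 bins held 1 or 2 protein-coding genes. Of these, 48 (7.41%) had no naive LAD and 85 (13.1%) no primed LAD, and the median coverage was 97% in naive and 99% in primed. Of the 571 bins with over 10 protein-coding genes, 68.8% had no naive and 72.5% no primed LAD. The array bin is thus among the minority of bins with 1 or 2 protein-coding genes that had no LAD in either list. Assembly gaps may lower the coverage of some bins, and bins without any gene were left out.

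The same held for the next bins. Runs of at least 3 consecutive bins, each with at most 2 protein-coding genes and no LAD in either list, occurred 3 times on the autosomes and X. One was chr15:25000001-28000000, which starts with the arrays and ends inside OCA2. The others were chr7:67000001-72000000 and chr22:10000001-13000000. The lengths of bin and run were chosen after the chromosome 15 values had been seen. Among LAD-free stretches of 5 Mb or longer, the one with the arrays had 3.79 protein-coding genes per Mb in naive cells, where 5 of 50 had fewer and the median was 11.4. It had 4.73 per Mb in primed cells, where 7 of 59 had fewer and the median was 9.59. Assembly gaps were not set apart in these stretches and may lower the gene number per Mb of some. An example with fewer protein-coding genes per Mb is chr1:124700001-144050000 in naive cells, at 0.103. How much of that stretch, or of the others with fewer, is sequence that cannot be mapped was not tested.

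**Figure D4:**
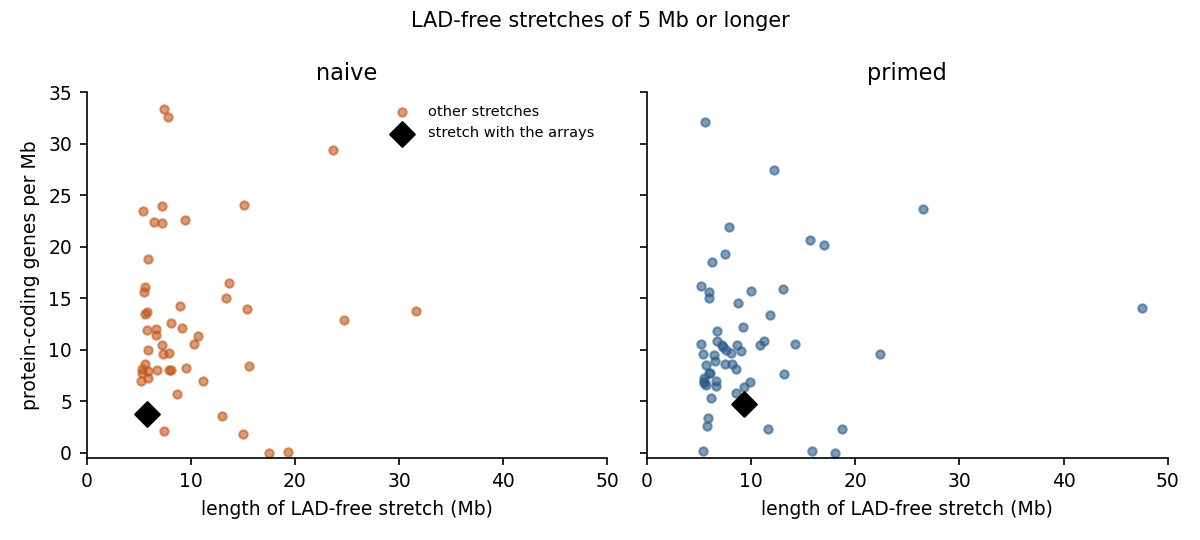
Protein-coding genes per Mb (y axis) against length in Mb (x axis) for each LAD-free stretch of 5 Mb or longer in naive (left, 50 stretches) and primed cells (right, 59 stretches). The stretch with the arrays (black diamond) lies low in both panels, at 3.79 genes per Mb in naive and 4.73 in primed cells. Assembly gaps were not set apart.

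The other imprinted snoRNA arrays, SNORD113 and SNORD114 on chromosome 14, are the closest match in kind. They are maternally expressed from the introns of MEG8. Their 40 copies span 68.5 kb (chr14:100924821-100993309), and 0 of 40 were in naive and 0 of 40 in primed LADs. The nearest LADs were 2005 kb (naive) and 2425 kb (primed) away on the centromere side and 4567 kb (naive) and 5137 kb (primed) on the telomere side. The LAD-free stretch around them was 6.64 Mb long in naive and 7.63 Mb in primed cells. MEG8, MEG3, RTL1, MEG9, DLK1 and DIO3 lie inside that stretch in both lists and were therefore covered at 0%. The chromosome 14 arrays with 1 Mb on each side hold 13 protein-coding genes, and the chromosome 15 arrays with the same flanks hold 5.

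Set against snoRNA genes at large, the chromosome 15 copies were far from LADs but not at the extreme. Their median distance to the nearest LAD was 2.63 Mb in naive and 4.22 Mb in primed cells. The 1078 other snoRNA genes had medians of 0.434 Mb in naive and 0.708 Mb in primed cells. Of those genes, 208 (19.3%) in naive and 149 (13.8%) in primed cells lay at least as far from a LAD as the nearest of the 78 copies. The 421 of them with a SNORD, SNORA or SCARNA symbol had medians of 0.803 Mb in naive and 1.03 Mb in primed cells, and 27.3% and 18.5% of them lay at least as far as the nearest copy. The 655 with a LOC symbol had medians of 0.211 Mb in naive and 0.481 Mb in primed cells, and 14.2% and 10.8% of them lay that far. For all genes the shares were 19.03% in naive and 13.6% in primed cells. The SNORD113 and SNORD114 copies had medians of 2.05 Mb in naive and 2.47 Mb in primed cells.

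**Figure D5:**
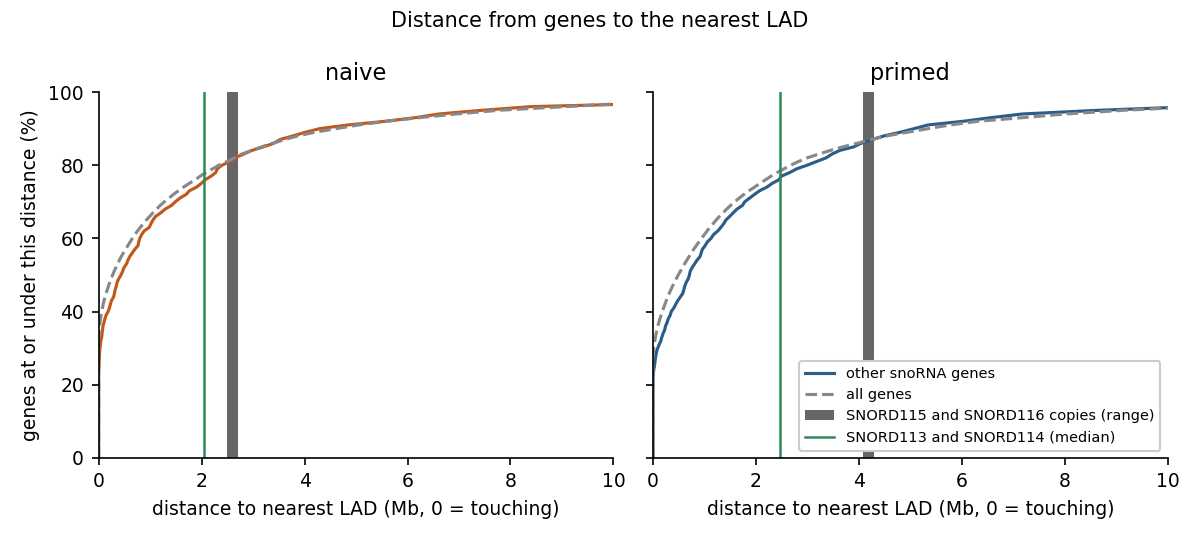
Cumulative share of genes (y axis, percent) by distance to the nearest LAD in Mb (x axis) in naive (left) and primed cells (right) for the 1078 other snoRNA genes (solid) and all genes (dashed). The dark band marks the range of the 78 SNORD115 and SNORD116 copies, 2.49 to 2.71 Mb in naive and 4.08 to 4.30 Mb in primed cells, and the green line the median of SNORD113 and SNORD114.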

How the data were processed

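LMNB1 and Dam-only pA-DamID libraries (3 of each per state) underlie 2 deposited lists of LAD intervals, 1 per state, with chromosome, start and end and no score, read number or signal. SAMtools 1.10, BWA, SICER and hg38 are named in the submitters' processing notes, and no source used here gives their roles, the thresholds, the pooling of replicates or the handling of multiply mapped reads. The depth behind a window is unknown. The labels cite lists named final, whereas the deposited ones are named simple.

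Gene positions came from RefSeq (GRCh38.p14, whose primary assembly is that of hg38). A gene was in a LAD when at least 50% of it was covered, distances run from gene or array edge to the nearest LAD edge, and coordinates are 1-based. Start-site windows from RefSeq held none of the 78 copies. No test was run, since each state has 1 list. Other settings merged LADs across gaps under 50 or 100 kb, removed LADs shorter than 50 or 100 kb, and changed the covered share, array edges and flanks. Members, gene lists and the rule for named genes (outermost copies, copies that differ between states, fixed lists of neighbours) were chosen with earlier results of these data known. Of the list of neighbours, 1 gene is not reported here. LOC128966705 and genes touched by bordering LADs were named after their values were seen. On simulated data, of 1196 snoRNA genes, 200 placed in simulated LADs were all recovered, with 0 calls outside their windows. Those LADs were made from the windows of the chosen genes, so this checks only the counting of overlaps. It says nothing of LAD calling or of mapping in repeats. Software was matplotlib 3.10.9, SciPy 1.17.1, pandas 2.3.3, numpy 2.4.6 and Python 3.11.15.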

Additional observations from a re-analysis of the deposited data

How the results depend on the processing

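Over 9 alternative settings, all 68 recomputed counts of copies and shares of array and flank, the SNORD113 and SNORD114 counts among them, were 0 in naive and in primed cells. With the nearest LAD 2005 kb away or more, these settings could not have given another value, so the zeros say nothing of stability. Distances on the centromere side did not move when LADs less than 50 or 100 kb apart were joined, and had no value (4 cases) without LADs under 50 or 100 kb, since no such LAD remains there. On the telomere side, the distance from SNORD115 to the nearest LAD became 9810 kb in naive cells without LADs under 50 kb or under 100 kb (3100 kb with all LADs). In primed cells it became 9860 kb without LADs under 50 kb and 10020 kb without those under 100 kb (5000 kb with all LADs). Of the other snoRNA genes, the share in naive LADs became 25.5% and 27.8% after merging across gaps under 50 and 100 kb and 19.5% without LADs under 100 kb. The share in primed LADs became 24.6% after merging across gaps under 100 kb and 19.4% without LADs under 100 kb. No paired analysis was possible because the files hold 1 list per state and no replicate is kept apart, and no replicate could be left out. The depth of the libraries is unknown, and mappability within the arrays was not tested.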
